A study of Homo sapiens with 16 samples.

Results

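The genes described here are 9 components of transforming growth factor beta (TGF-beta) signalling, out of 28278 gene symbols counted by RNA-seq in melanoma cell lines. They were chosen by symbol, with earlier results from these libraries known: the ligands TGFB1, TGFB2 and INHBA, the receptors TGFBR1 and TGFBR2, the latency protein NRROS, the feedback inhibitors SMAD7 and PMEPA1, and the target TGFBI. All 9 symbols had a row in each of the 16 libraries. Because the choice drew on these measurements, the values of the 9 genes are given as a description without p-values.

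Both cell lines, SKMEL28 and A375, are established human melanoma lines with an activating BRAF mutation. SKMEL28 was represented by 1 wild-type library (numbered replicate 4), 3 libraries of the line D2, labelled MITFKO, and 3 each from clone 3 and clone 13, in which CRISPR-Cas9 editing of TFE3 was added to the D2 line; both clones therefore carry the MITF edit of their MITFKO controls and are called DKO here. A375 was represented by 3 wild-type and 3 TFE3KO libraries. MITF is the master transcription factor of melanocytes, and TFE3 is a relative from the same family that recognises much the same DNA motif. Replicates came from separate flasks of the same line or clone, so errors and p-values cover the variation from flask to flask, not that among independently edited clones. The medium was RPMI for SKMEL28 and DMEM for A375, both with 10% serum, and it was renewed 24 hours before harvest, so the line and its medium cannot be told apart.

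TGF-beta is secreted in a latent form, held inactive by its own propeptide and attached either to LTBP proteins of the matrix or to a membrane anchor such as NRROS or LRRC32. Once released, it binds TGFBR2, which activates TGFBR1; that kinase phosphorylates SMAD2 and SMAD3, which enter the nucleus with SMAD4. Activins, dimers of INHBA or its relatives, use other receptors but the same SMADs. SMAD7 and PMEPA1 are induced by the pathway and dampen it, and TGFBI is an extracellular matrix protein named for its induction by TGF-beta. In melanoma the pathway is known for its link to dedifferentiated, invasive cell states.

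Total counts ran from 17320855 to 31269126 per library. TFE3 mRNA was at 12.8% of its MITFKO level in DKO clone 3, at 62.3% in DKO clone 13, and at 9.71% of wild type in A375 TFE3KO, so in clone 13 the mRNA did not check the TFE3 label. MITF mRNA was 524 CPM (TMM-scaled counts relative to library size) in SKMEL28 wild type and 498 CPM in the libraries labelled MITFKO; gene-level counts therefore did not check that label, and MITFKO is used below as the label's name only. DKO clone 13 replicate 2 stood apart from its fellow replicates, with chi-square statistics per degree of freedom of 21.9 and 23.3 against 3.20 to 7.14 in the other 13 pairs of replicates. The highest of those 13 were clone 3 replicate 2 with replicates 1 and 3, at 6.44 and 7.14, against 3.39 between clone 3 replicates 1 and 3. The header of the lone SKMEL28 wild-type file names another alignment input than the other files that name one. All 6 melanocyte-lineage markers reached 1 CPM in SKMEL28 wild type, MITFKO and DKO clone 3, and 5 of 6 did in DKO clone 13. In each A375 group 2 of 6 reached 1 CPM, and TYR was at 0. CPM of SKMEL28 and A375 were normalised separately; on 1 common scale each SKMEL28 value would be 102.7% to 102.9% of the value given and each A375 value 95.15% to 95.74%.

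**Figure D1:**
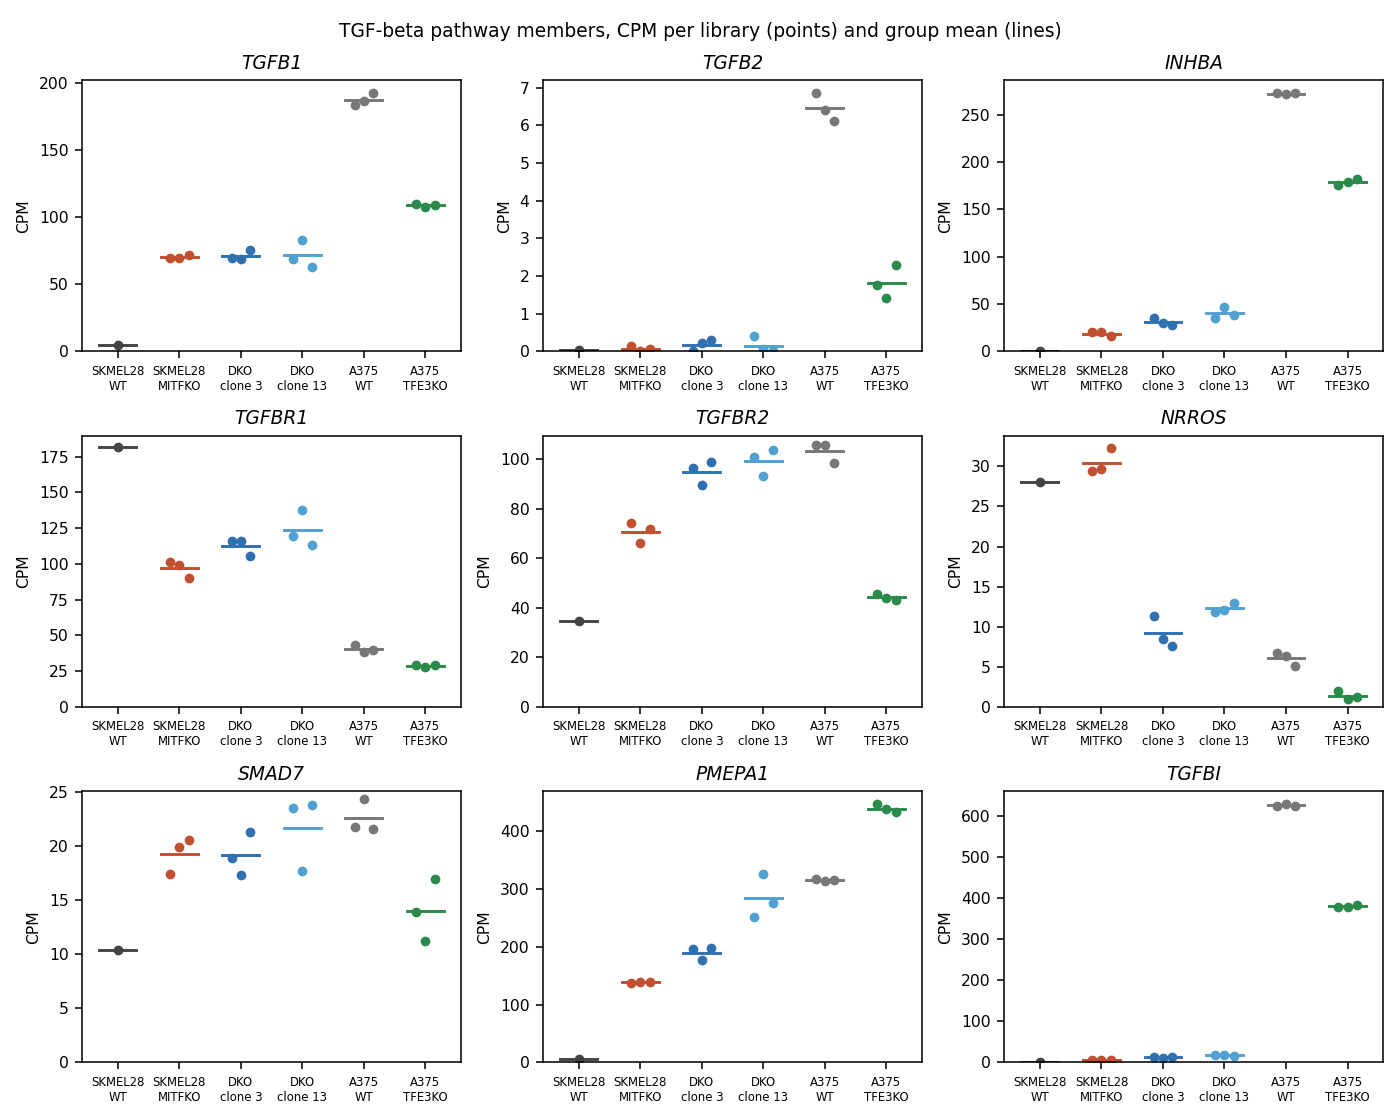
CPM of each of the 9 genes (y axis, linear from 0, scale differing between panels) in every library (points) of the 6 groups, with group means (lines). TGFB1, PMEPA1 and INHBA were near the floor of the axis in SKMEL28 wild type, with 4.98, 6.18 and 0.399 CPM, and NRROS was lower in each TFE3-edited group than in its controls.

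Promoter sequences are shown for TGFB2, which holds the shared MITF and TFE3 motif CACGTG, for NRROS, which was lower in each TFE3-edited group, and for TGFB1, which was lower in A375 TFE3KO and not in the DKO clones. They are the 250 bases before the first annotated start in RefSeq, build GRCh38.p14, written 5′ to 3′ along the gene's strand, at chr1:218345086-218345335 (plus strand) for TGFB2, chr3:196639444-196639693 (plus strand) for NRROS and chr19:41353923-41354172 (minus strand) for TGFB1; capitals mark CACGTG.
TGFB2: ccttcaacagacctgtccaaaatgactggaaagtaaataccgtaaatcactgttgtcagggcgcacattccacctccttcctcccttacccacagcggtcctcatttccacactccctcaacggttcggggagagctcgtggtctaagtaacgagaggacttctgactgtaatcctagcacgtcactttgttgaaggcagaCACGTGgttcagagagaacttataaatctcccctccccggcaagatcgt
NRROS: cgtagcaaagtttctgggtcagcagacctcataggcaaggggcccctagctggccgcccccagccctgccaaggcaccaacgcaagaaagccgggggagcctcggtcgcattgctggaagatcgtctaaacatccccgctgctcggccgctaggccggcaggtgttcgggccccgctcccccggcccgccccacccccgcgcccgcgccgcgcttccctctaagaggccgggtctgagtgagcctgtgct
TGFB1: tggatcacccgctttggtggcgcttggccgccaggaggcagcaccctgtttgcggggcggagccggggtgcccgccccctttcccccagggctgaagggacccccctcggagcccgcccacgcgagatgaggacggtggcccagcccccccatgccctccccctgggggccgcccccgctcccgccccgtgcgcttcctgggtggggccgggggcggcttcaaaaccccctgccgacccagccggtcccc

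All 9 genes matched the RefSeq table by symbol, with 22 promoter entries between them. Of the 4 motifs searched on both strands, CACGTG stood in 6.34% of all 35116 promoters and, among the 9 genes, only in that of TGFB2, beginning 49 bases before the start. The SMAD-binding letters CAGACA stood in 13.6% of all promoter entries and in the first entry of 1 of the 9 genes, TGFB2. There the match began 53 bases before the start and overlapped the CACGTG match. Over all 22 entries, CAGACA stood in those of 3 of the 9 genes. Besides TGFB2 these were entries for alternative starts of TGFBR1 (17 and 244 bases before the start) and 1 for PMEPA1 (115 bases before the start). TCATGTG, another MITF and TFE3 motif (2.52% of promoters), and TGANTCA, the AP-1 motif (6.57%), matched in none of the 9 genes. The base composition differed, with a GC content of 50.4% in the TGFB2 window against 69.2% in NRROS and 76.8% in TGFB1. A match is a description of the sequence only; no binding was measured.

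Among the ligands, TGFB1 was far higher in SKMEL28 MITFKO than in wild type, stayed there in both DKO clones, and was lower in A375 TFE3KO than in A375 wild type. TGFB1 encodes the most widely expressed TGF-beta. Its level was 4.98 CPM in the lone SKMEL28 wild-type library (125 counts), 69.2, 69.3 and 71.9 CPM in MITFKO, 69.2, 68.3 and 75.0 CPM in DKO clone 3, and 68.9, 82.9 and 62.6 CPM in DKO clone 13. The 9 edited SKMEL28 libraries formed 1 overlapping range well above wild type. The log2 fold change was 3.81 ± 0.17 (SE) for MITFKO against wild type, 0.014 ± 0.085 for clone 3 and 0.027 ± 0.085 for clone 13 against MITFKO. In A375, TGFB1 was 184, 186 and 192 CPM in wild type and 110, 107 and 109 CPM in TFE3KO. The A375 groups did not overlap, with a log2 fold change of -0.79 ± 0.042 and 58.0% of the wild-type level remaining. An annotated exon of HNRNPUL1 on the opposite strand shares 215 bases with TGFB1 exons, and use of strand in counting is not given in the sources used here.

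TGFB2, a second TGF-beta isoform, was barely detected in SKMEL28 and was a low but measurable transcript in A375. It had 1 count in wild type, 4 in the 3 MITFKO libraries together, 9 in DKO clone 3 and 8 in DKO clone 13, with at least 1 library at 0 in each of the edited SKMEL28 groups. It did not pass the filter on low counts in that line; the ratio of MITFKO to wild type was 1.63, with a 95% counting interval of 0.161 to 80.2, so a difference was not detectable at this depth. In A375 wild type it was 6.86, 6.41 and 6.10 CPM, and in A375 TFE3KO 1.76, 1.41 and 2.28 CPM. The lowest wild-type library was above the highest TFE3KO library, with 28.2% of the wild-type level remaining and a log2 fold change of -1.84 ± 0.23.

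INHBA, the beta A subunit of activin A, was higher with each edit in SKMEL28 and lower with the TFE3 edit in A375. It was 0.399 CPM in SKMEL28 wild type (10 counts), 19.9, 20.3 and 15.6 CPM in MITFKO, 35.5, 30.1 and 27.3 CPM in DKO clone 3, and 35.1, 46.5 and 38.7 CPM in DKO clone 13. Both clones lay wholly above MITFKO, and the clones overlapped each other. The log2 fold change was 5.52 ± 0.35 for MITFKO against wild type, 0.73 ± 0.13 for clone 3 and 1.11 ± 0.13 for clone 13 against the same MITFKO libraries, and 0.38 ± 0.12 for clone 13 against clone 3. In A375 it was 273, 272 and 273 CPM in wild type and 176, 179 and 182 CPM in TFE3KO. That was 65.6% of the wild-type level, a log2 fold change of -0.61 ± 0.036, without overlap.

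NRROS, the membrane protein that anchors latent TGF-beta 1, was lower in every TFE3-edited group than in its own control and differed little between SKMEL28 MITFKO and wild type. Its level was 28.1 CPM in SKMEL28 wild type and 29.4, 29.7 and 32.2 CPM in MITFKO, a log2 fold change of 0.12 ± 0.17. It was 11.4, 8.48 and 7.59 CPM in DKO clone 3 and 11.8, 12.1 and 12.9 CPM in DKO clone 13. All 6 DKO libraries lay below all MITFKO libraries, and clone 3 lay wholly below clone 13. The log2 fold change against the shared MITFKO libraries was -1.73 ± 0.13 for clone 3 and -1.31 ± 0.13 for clone 13, and that between the clones was 0.42 ± 0.14.

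In A375, NRROS was 6.76, 6.36 and 5.08 CPM in wild type and 1.92, 1.03 and 1.20 CPM in TFE3KO, again without overlap. The log2 fold change was -2.08 ± 0.25, and -2.44 without TFE3KO replicate 1, the highest of the 3 TFE3KO libraries. The remaining NRROS mRNA was 30.04% of control in clone 3, 40.3% in clone 13 and 22.8% in A375 TFE3KO. TFE3 mRNA, at 12.8%, 62.3% and 9.71% in the same order, had the same rank order over these 3 groups, which is a description over 3 points. PIGX shares 222 bases of annotated exon with NRROS on the same strand.

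**Figure D2:**
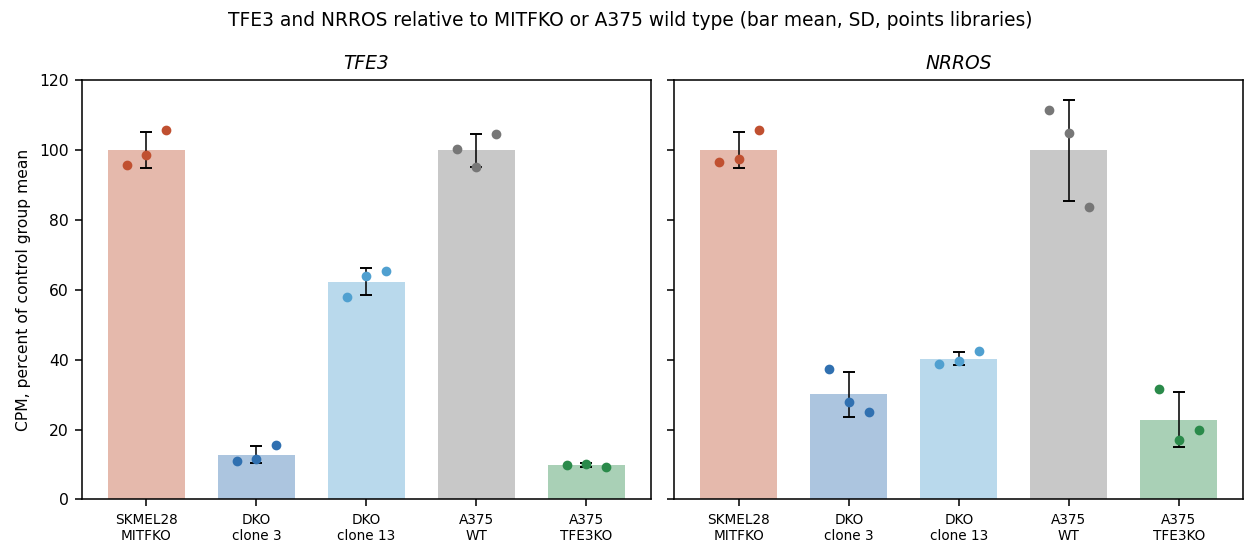
TFE3 mRNA (left) and NRROS mRNA (right) as percent of the mean of the control group (y axis, from 0), with MITFKO as control of the DKO clones and A375 wild type as control of A375 TFE3KO; bars are means, whiskers SD over 3 libraries, points libraries. TFE3 was 62.3% in DKO clone 13 against 12.8% in clone 3, whereas NRROS was 40.3% and 30.04%.

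The receptors differed in opposite directions between SKMEL28 wild type and MITFKO, and in the same direction as each other with the TFE3 edits. TGFBR1, the type I receptor kinase, was 182 CPM in SKMEL28 wild type and 101, 99.4 and 90.3 CPM in MITFKO, a log2 fold change of -0.91 ± 0.096. TGFBR2, the type II receptor that binds the ligand, was 34.5 CPM in wild type and 74.1, 65.9 and 71.6 CPM in MITFKO, a log2 fold change of 1.03 ± 0.11. TGFBR1 was the only one of the 9 genes that was lower in MITFKO than in wild type. In DKO clone 3, TGFBR1 was 116, 116 and 106 CPM and in clone 13 it was 119, 138 and 113 CPM. Every DKO library was above every MITFKO library for TGFBR1, with log2 fold changes of 0.22 ± 0.072 and 0.35 ± 0.072.

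TGFBR2 was 96.5, 89.4 and 98.7 CPM in DKO clone 3 and 101, 93.1 and 104 CPM in clone 13. These libraries also all lay above MITFKO, with log2 fold changes of 0.43 ± 0.069 and 0.49 ± 0.069. In A375 both receptors were lower in TFE3KO. TGFBR1 was 43.5, 38.6 and 39.8 CPM in wild type against 29.0, 27.8 and 29.0 CPM (log2 fold change -0.51 ± 0.075). TGFBR2 was 106, 106 and 98.3 CPM against 45.4, 44.0 and 42.9 CPM (log2 fold change -1.22 ± 0.056). Of the receptors, TGFBR2 had the larger difference in A375, with 42.8% of the wild-type level remaining against 70.4% for TGFBR1, and neither receptor's groups overlapped.

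The feedback inhibitors differed from each other with the TFE3 edit. SMAD7, an inhibitory SMAD that blocks the type I receptor, was 10.4 CPM in SKMEL28 wild type, 17.5, 19.9 and 20.6 CPM in MITFKO, 19.0, 17.4 and 21.3 CPM in DKO clone 3, and 23.5, 17.7 and 23.8 CPM in DKO clone 13. The MITFKO and DKO groups overlapped, with log2 fold changes of -0.0094 ± 0.13 and 0.17 ± 0.13, whereas MITFKO was above wild type by 0.89 ± 0.19. In A375, SMAD7 was 21.8, 24.4 and 21.6 CPM in wild type and 13.9, 11.2 and 17.0 CPM in TFE3KO, a log2 fold change of -0.70 ± 0.11 without overlap.

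PMEPA1, a membrane protein that sequesters receptor-activated SMADs, was the only one of the 9 genes that was higher in both DKO clones and in A375 TFE3KO. It was 6.18 CPM in SKMEL28 wild type, 138, 139 and 140 CPM in MITFKO, 196, 177 and 197 CPM in DKO clone 3, and 251, 327 and 276 CPM in DKO clone 13. These 4 groups were ordered without overlap. The log2 fold change was 4.49 ± 0.16 for MITFKO against wild type, 0.45 ± 0.076 for clone 3 and 1.04 ± 0.076 for clone 13 against MITFKO, and 0.58 ± 0.076 between the clones. In A375 it was 317, 314 and 316 CPM in wild type and 447, 438 and 432 CPM in TFE3KO, a log2 fold change of 0.48 ± 0.032. NKILA, an antisense RNA, shares 343 bases of annotated exon with PMEPA1 on the opposite strand; over all libraries NKILA had 1153 counts, HNRNPUL1, which overlaps TGFB1, 135588, and PIGX, which overlaps NRROS, 11744.

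TGFBI, the matrix target, followed the order of INHBA. It was 0.877 CPM in SKMEL28 wild type (22 counts), 6.20, 7.14 and 5.57 CPM in MITFKO, 13.1, 9.59 and 14.3 CPM in DKO clone 3, and 18.9, 18.3 and 15.8 CPM in DKO clone 13. No SKMEL28 groups overlapped, and the log2 fold changes were 2.84 ± 0.34 for MITFKO against wild type, 0.97 ± 0.17 and 1.48 ± 0.16 for the clones against MITFKO, and 0.52 ± 0.15 between the clones. In A375 it was 625, 630 and 625 CPM in wild type and 378, 380 and 383 CPM in TFE3KO. The log2 fold change there was -0.72 ± 0.030, with 60.7% of the wild-type level remaining.

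**Figure D3:**
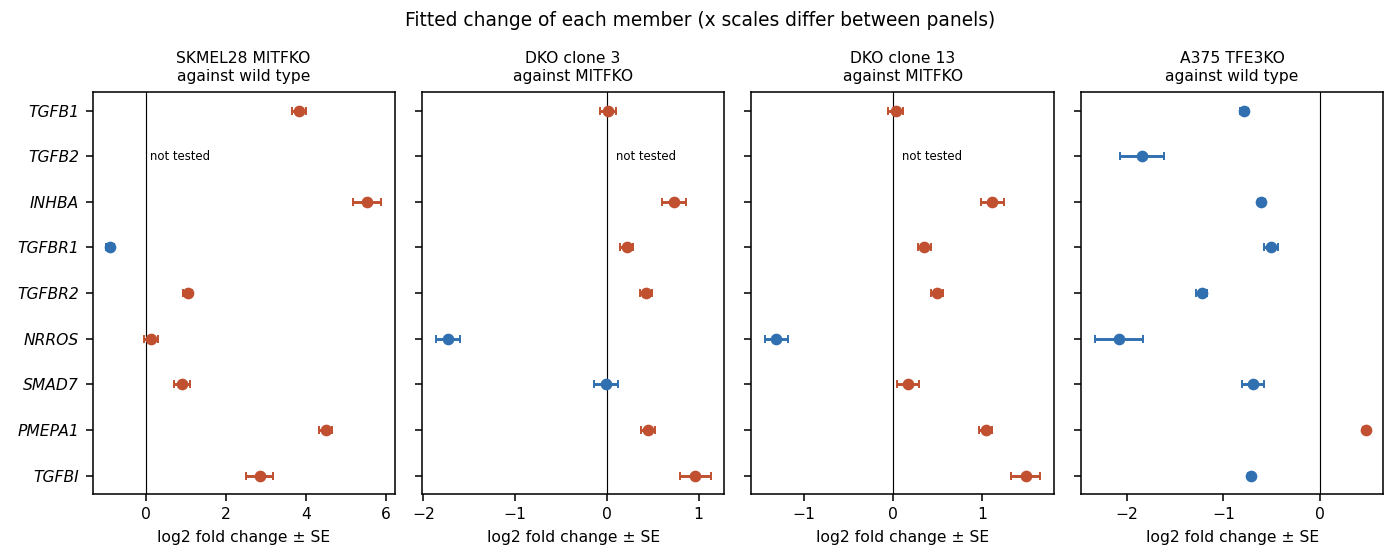
Fitted log2 fold change ± SE (x axis, scale differing between panels) of each of the 9 genes in 4 comparisons; the panels for clones 3 and 13 share their MITFKO controls, and genes under the low-count filter are marked not tested. NRROS lies to the left in the 3 comparisons of a TFE3 edit, and PMEPA1 lies to the right in all 4, at 4.49, 0.45, 1.04 and 0.48.

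In the fit over all genes, 7 of the 8 genes of the 9 that passed the filter on low counts were called for MITFKO against wild type (6 higher, 1 lower), where 48.6% of all genes tested were called. The count was 6 of 8 for DKO clone 3 (5 higher, 1 lower), beside 35.9% of all genes, and 6 of 8 for DKO clone 13 (5 higher, 1 lower), beside 40.7%. For the mean of both clones it was 6 of 8 (5 higher, 1 lower), beside 41.1%, and for clone 13 against clone 3 it was 4 of 8, all higher in clone 13, beside 27.6%. In A375, 9 of 9 were called (1 higher, 8 lower), beside 43.3%. These contrasts were known when the genes were chosen, so nothing is read from the counts. Without DKO clone 13 replicate 2, the library that stood apart, the log2 fold change of clone 13 against MITFKO was 1.00 for INHBA, 0.27 for TGFBR1, 0.54 for TGFBR2, -1.29 for NRROS, 0.93 for PMEPA1, 1.46 for TGFBI, 0.30 for SMAD7 and -0.090 for TGFB1. The value for TGFB1 changed sign and that for SMAD7 was larger than with all libraries, while the others kept their direction.

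The TFE3 edits went in opposite ways in the 2 lines for several of these genes. INHBA, TGFBR1, TGFBR2 and TGFBI were higher in every DKO library than in every MITFKO library, and lower in every A375 TFE3KO library than in every A375 wild-type library. The difference between lines, SKMEL28 (mean of both clones) minus A375, was 1.54 ± 0.13 for INHBA, 0.80 ± 0.097 for TGFBR1, 1.69 ± 0.084 for TGFBR2 and 1.95 ± 0.12 for TGFBI on the log2 scale. It was 0.82 ± 0.092 for TGFB1 and 0.78 ± 0.18 for SMAD7, which in SKMEL28 differed by only 0.020 ± 0.074 and 0.079 ± 0.11. It was 0.28 ± 0.085 for PMEPA1 and 0.55 ± 0.25 for NRROS, which had the same direction in both lines; the NRROS value ran from 0.37 without A375 TFE3KO replicate 2 to 0.93 without A375 TFE3KO replicate 1. The value for TGFB2, 3.00 ± 1.02, rests on a few counts in SKMEL28 and ran from 1.87 without DKO clone 13 replicate 1 to 4.19 without MITFKO replicate 1. Beside this, 37.7% of all genes tested were called for the difference between lines, and 8 of the 9 genes were among them, all with a positive sign. TGFB2 is among these 8, although it did not pass the low-count filter in SKMEL28 and entered this fit through its A375 counts. Its call and sign therefore say little about SKMEL28. The SKMEL28 cells carry the MITF edit and the A375 cells do not, so the line, its medium and the MITF edit cannot be told apart here.

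Levels were also divided by length, as CPM per kilobase of annotated exon, to order them between genes. The order depends on the length used, here the union of all GENCODE v29 exons of a gene. That union can be longer than the transcripts expressed, and the annotation behind the counts is not given. In SKMEL28 wild type TGFBR1 was highest, at 26.6 CPM per kb, followed by NRROS at 9.65 and TGFBR2 at 7.34, while TGFB1 was 1.54, PMEPA1 1.10 and INHBA 0.0480. In MITFKO the order began with PMEPA1 at 24.7 and TGFB1 at 21.7 CPM per kb. The receptors followed, with TGFBR2 at 14.998 and TGFBR1 at 14.2 CPM per kb, and their library ranges overlapped (14.0 to 15.7 and 13.2 to 14.8). NRROS was next at 10.5 CPM per kb in MITFKO. In DKO clone 13 PMEPA1 was 50.7 CPM per kb, above TGFB1 at 22.1 and TGFBR2 at 21.1, whose ranges overlapped; NRROS, at 4.22, overlapped the range of SMAD7 at 4.31. In A375 wild type the matrix gene TGFBI was highest, at 80.3 CPM per kb, above TGFB1 at 57.8 and PMEPA1 at 56.1, and in A375 TFE3KO PMEPA1 was highest, at 78.1, above TGFBI at 48.7.

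**Figure D4:**
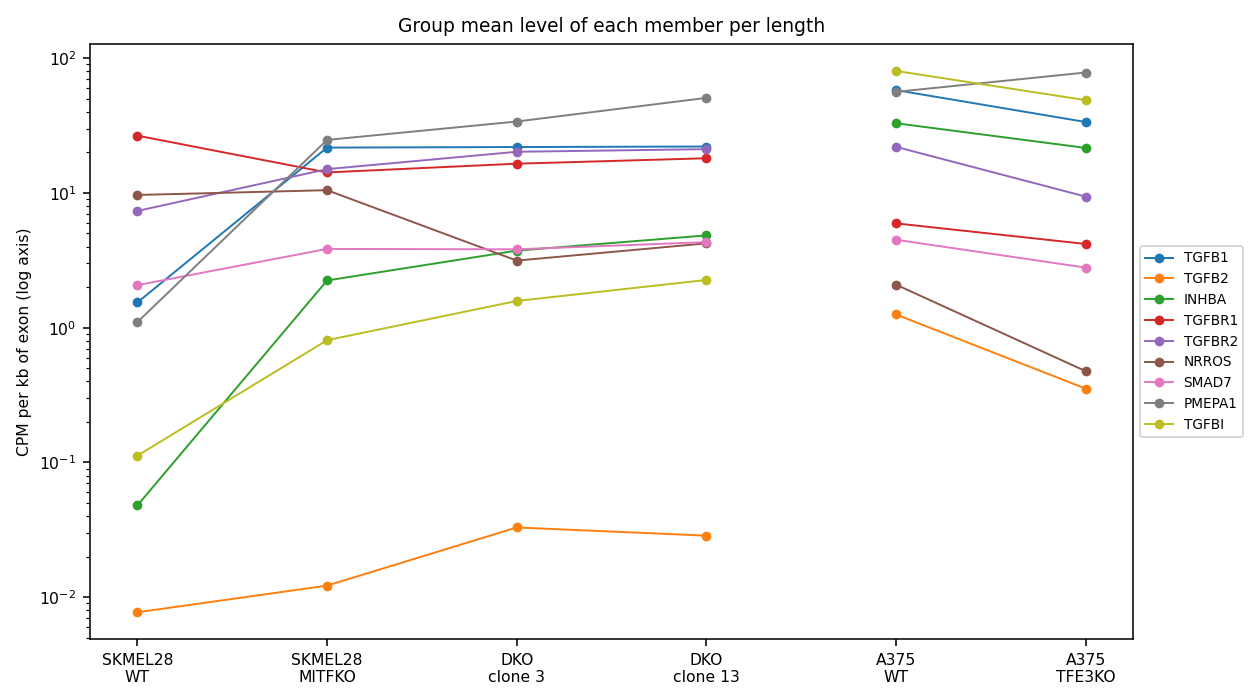
Group mean level of each of the 9 genes as CPM per kilobase of annotated exon (y axis, log scale) in the 6 groups; lines join groups of 1 line for reading only. TGFB1 and PMEPA1 cross above the receptors between SKMEL28 wild type (1.54 and 1.10) and MITFKO (21.7 and 24.7).

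The rest of the pathway was read from 69 further genes listed by role: 9 ligands, 11 genes of latency and activation, 8 receptors, 8 SMADs and partners, 12 inhibitors and 21 targets. Those named for the size of their change were picked among called genes, so their passing the test is not a result. All 69 were listed with earlier results of these data known, so their counts and p-values are not free of that choice. For MITFKO against wild type, where the wild type is 1 library, 62 were tested, 36 rose and 12 fell by the edgeR test (quasi-likelihood, p adjusted over all genes by Benjamini-Hochberg), beside 48.6% of all genes called. The median log2 fold change of the 62 was 0.91 against 0.015 over all genes. In the latency and activation group 7 of 10 tested genes rose and 1 fell; LTBP3, which tethers latent TGF-beta to the matrix, rose from 4.90 to 158 CPM (log2 fold change 5.01 ± 0.29, edgeR adjusted p = 4.46e-07). Among inhibitors 8 of 12 rose and 3 fell, and FST, the activin-binding protein follistatin, rose from 2.35 to 49.8 CPM (4.40 ± 0.18, edgeR adjusted p = 7.49e-15). Receptors went the other way, with 2 of 7 rising and 4 falling: ACVR1C, a type I receptor for activin-like ligands, fell from 18.1 to 5.26 CPM (-1.78 ± 0.26, edgeR adjusted p = 5.40e-06), and ACVR2A, an activin type II receptor, fell from 6.26 to 3.31 CPM (-0.91 ± 0.34, edgeR adjusted p = 0.0294), a call that ended without MITFKO replicate 3 (edgeR adjusted p = 0.106).

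Among targets, 11 of 20 tested rose for MITFKO against wild type and 3 fell, beside 48.6% of all genes called. The median log2 fold change of the 20 was 1.01, against 0.91 for the 62 pathway genes. ANGPTL4, a secreted lipase inhibitor, was at 0 in the wild-type library and 4.52 CPM in MITFKO, at least 37.9-fold higher against a floor of 3 counts in that library. CCN2, a matricellular protein, fell from 55.5 to 11.1 CPM (-2.32 ± 0.24, edgeR adjusted p = 3.33e-06), and COL4A1, a basement membrane collagen, fell from 20.2 to 4.40 CPM (-2.20 ± 0.30, edgeR adjusted p = 3.75e-06). Of the signalling SMADs, SMAD3 rose from 35.8 to 109 CPM (1.61 ± 0.093) and SMAD4 from 47.0 to 63.6 CPM (0.44 ± 0.11), with edgeR adjusted p values of 3.61e-12 and 0.00178. SMAD2 was 68.1 and 65.6 CPM, with an edgeR adjusted p of 0.699. TGFB3, the third isoform, rose from 4.82 to 13.6 CPM (1.49 ± 0.23) and SKIL, a SMAD co-repressor, from 22.2 to 44.8 CPM (1.01 ± 0.15), with edgeR adjusted p values of 8.88e-06 and 6.06e-06. The summed CPM of the 6 melanocyte-lineage markers was 13519 in the wild-type library and 5019 to 5273 in MITFKO. MLANA was lower (718 against 3.13 CPM, wild type first), as were PMEL (10151 against 3278 CPM), DCT (789 against 281 CPM) and S100B (941 against 528 CPM). TYR was slightly lower (248 against 212 CPM), and SOX10 was higher (671 against 820 CPM). The part of these 6 markers in the results was not tested.

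**Figure D5:**
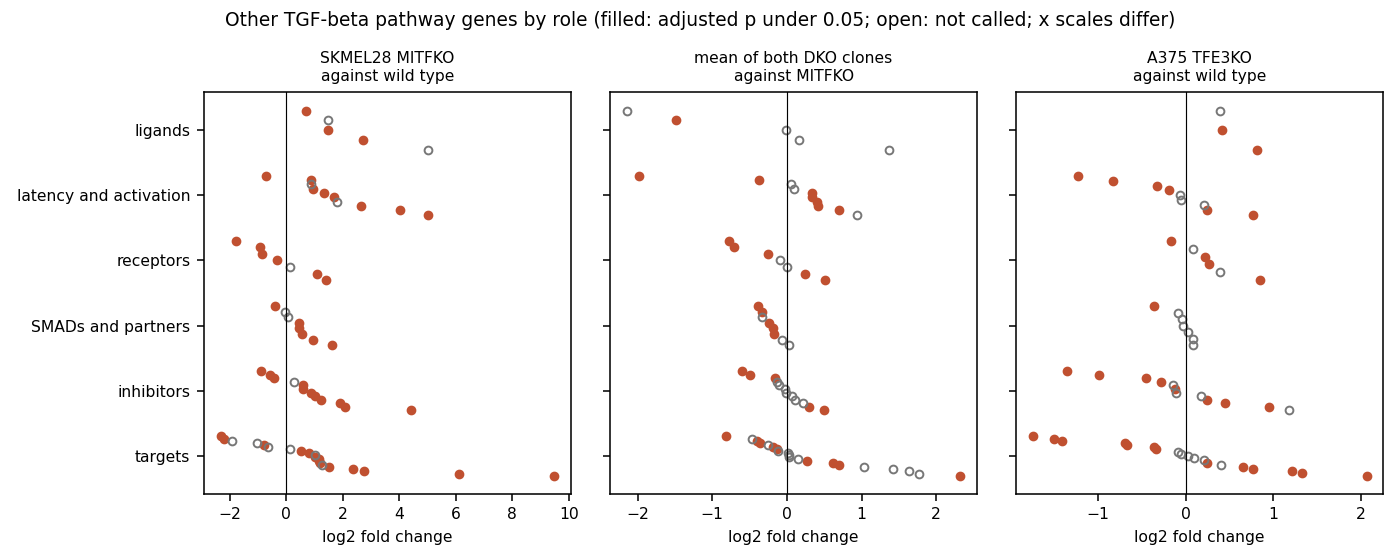
Log2 fold change (x axis, scale differing between panels) of each other pathway gene tested, by role, for MITFKO against wild type, the mean of both DKO clones against MITFKO, and A375 TFE3KO against wild type; filled points passed the edgeR threshold of 0.05, open points did not. In the left panel 36 genes rose and 12 fell, in the middle 13 and 19, and on the right 16 and 18.

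With the TFE3 edit in SKMEL28, the wider pathway divided almost evenly. In DKO clone 3, 12 of 62 tested genes rose and 16 fell, with a median of -0.021 against -0.0051 over all genes. In DKO clone 13, compared with the same MITFKO libraries, 13 rose and 17 fell, with a median of -0.030 against -0.017. For the mean of both clones 13 rose and 19 fell. Of the SMADs and partners, none of 8 rose and 5 fell for the mean of both clones (SMAD2 and SMAD3 among them, with overlapping libraries), while in the latency and activation group 5 of 10 rose and 2 fell. The call of SMAD2 for the mean (edgeR adjusted p = 0.0341) ended in DESeq2 (0.0538) and without MITFKO replicate 1 or 2 (0.0961 and 0.224) or clone 3 replicate 1 or 2 (0.0513 and 0.0804). The background was 35.9%, 40.7% and 41.1% of all genes called. Without clone 13 replicate 2, 29 of the 62 genes were called in clone 13 in place of 30, and 30 for the mean of both clones in place of 32.

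IL11, a TGF-beta-induced cytokine, had the largest rise in either clone among the genes named by rule, from 0.491 CPM in MITFKO to 2.68 CPM in clone 3 and 2.29 CPM in clone 13 (2.44 ± 0.40 and 2.21 ± 0.40, edgeR adjusted p = 5.30e-05 and 0.000122). In clone 3 the other leading rises were CCN2, from 11.1 to 22.5 CPM (1.02 ± 0.20), DCN, a matrix proteoglycan that binds TGF-beta, from 4.58 to 7.27 CPM (0.67 ± 0.18), and KLF10, an early-response repressor, from 61.0 to 86.1 CPM (0.50 ± 0.076). In clone 13 they were the matrix protein FN1 (1.15 ± 0.056), LTBP3, from 158 to 328 CPM (1.05 ± 0.13), and THBS1, an activator of latent TGF-beta (0.95 ± 0.079). KLF10 went the other way in clone 13, at 39.0, 36.9 and 34.8 CPM against 66.0, 60.4 and 56.7 CPM in MITFKO. CD109, a TGF-beta co-receptor, rose for the mean of both clones from 446 to 658 CPM (0.51 ± 0.067), as did THBS1 (0.70 ± 0.070) and FN1 (0.62 ± 0.049). The rises of CD109 and FN1 lay mostly in clone 13. CD109 was 510, 496 and 475 CPM in clone 3 and 769, 955 and 742 CPM in clone 13, and FN1 was 1.06 higher in clone 13 than in clone 3 on the log2 scale. DCN is also among the 5 fibroblast markers, whose summed CPM was 50.7 to 60.6 in MITFKO, 99.8 to 108 in clone 3 and 74.4 to 86.9 in clone 13; their part in these results was not tested.

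Falls that led in both clones were INHBE, another activin subunit, from 2.66 CPM to 1.10 and 0.813 CPM (-1.26 ± 0.46 and -1.72 ± 0.47), and CDKN1A, the cell-cycle inhibitor p21, from 29.6 CPM to 16.5 and 17.2 CPM (-0.85 ± 0.14 and -0.78 ± 0.13). The INHBE call in clone 3 (edgeR adjusted p = 0.0355) ended without MITFKO replicate 2 or 3 (0.0830 and 0.255) or clone 3 replicate 1 or 3 (0.0701 and 0.142), and those in clone 13 and in the mean of both clones ended without MITFKO replicate 3 (0.0716 and 0.0824). ACVR2B, an activin type II receptor, fell from 19.9 to 10.1 CPM in clone 3 (-0.98 ± 0.14) and by 0.71 ± 0.12 for the mean of both clones. In clone 13 ACVR1C fell from 5.26 to 2.91 CPM (-0.85 ± 0.22). For the mean of both clones ACVR1C fell by 0.78 ± 0.19. SKIL fell in both, from 44.8 CPM to 32.3 and 31.3 CPM (-0.47 ± 0.10 and -0.52 ± 0.10, edgeR adjusted p = 0.000792 and 0.000233).

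The remaining SMADs and targets fixed for naming gave mixed results in the DKO clones. SMAD3 fell in clone 13 from 109 to 88.0 CPM (-0.31 ± 0.059, edgeR adjusted p = 0.000190) and was 106 CPM in clone 3 (edgeR adjusted p = 0.599). SMAD4 was 63.6 CPM in MITFKO, 63.7 CPM in clone 3 and 66.1 CPM in clone 13, with edgeR adjusted p values of 0.994 and 0.592. SMAD2 was 57.0 CPM in clone 3 against 65.6 CPM in MITFKO, with overlapping libraries (edgeR adjusted p = 0.0483). That call did not hold without MITFKO replicate 1 or 2 (0.104 and 0.219) or without clone 3 replicate 1 or 2 (0.0851 and 0.222). It also ended in DESeq2 (0.0649) and in edgeR with RLE factors (0.0520). In clone 13 SMAD2 was 58.6 CPM (edgeR adjusted p = 0.104, and 0.0465 without MITFKO replicate 3). TGFB3 was 17.0 CPM in clone 3 and 13.7 CPM in clone 13 against 13.6 CPM (edgeR adjusted p = 0.0782 and 0.962); fitted on the 2 groups alone, clone 3 was called (edgeR adjusted p = 0.0350). CCN2 in clone 13 was 14.3 CPM against 11.1 CPM in MITFKO (0.37 ± 0.20, edgeR adjusted p = 0.175); without clone 13 replicate 2 it was called (edgeR adjusted p = 0.000778), as it was without MITFKO replicate 2 (0.0430) and with all libraries and no filter on low counts (0.0157).

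Between the clones, 16 of the 62 genes were higher in clone 13 and 8 lower, beside 27.6% of all genes called, and 7 of 10 latency and activation genes were higher and none lower. Without clone 13 replicate 2 the number called was 27 in place of 24. LTBP3 was 135 CPM in clone 3 and 328 CPM in clone 13 (1.28 ± 0.13, edgeR adjusted p = 0.000116), and ITGB8, an integrin subunit that activates latent TGF-beta, was 94.5 and 171 CPM (0.86 ± 0.070). FN1 (1.06 ± 0.056) and ANGPTL4, at 3.80 and 6.67 CPM (0.81 ± 0.27, edgeR adjusted p = 0.0274), were also higher in clone 13, the call for ANGPTL4 ending without clone 3 replicate 1 or 3 (0.152 and 0.122). KLF10 (-1.22 ± 0.078), FSTL3, a follistatin relative (-0.41 ± 0.10), and CCN2 (-0.65 ± 0.20, edgeR adjusted p = 0.0259) were lower; the CCN2 call ended without clone 3 replicate 1 or 3 or clone 13 replicate 1 (0.0835, 0.0888 and 0.0719). SMAD3 was lower in clone 13 (-0.27 ± 0.059, edgeR adjusted p = 0.00167).

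In A375, 16 of 56 tested pathway genes rose in TFE3KO and 18 fell, beside 43.3% of all genes called, with a median log2 fold change of 0.024 against 0.0033 over all genes. The summed CPM of the melanocyte-lineage markers was 516 to 546 in wild type and 815 to 891 in TFE3KO. SOX10 was at 526 and 825 CPM and S100B at 2.97 and 19.7 CPM, while MLANA, PMEL, TYR and DCT were under 1 CPM in both groups. Of the listed leukocyte and endothelium markers, CD68 was at 34.5 and 19.1 CPM. PTPRC, CD14, ITGAM, PECAM1 and CDH5 were under 1 CPM in both groups. The part of these markers in the results was not tested. Among targets 6 of 19 rose and 7 fell. PTHLH, the parathyroid hormone-related protein, fell from 22.6 to 6.62 CPM (-1.74 ± 0.13), COL1A1, a fibrillar collagen, from 4.68 to 1.63 CPM (-1.51 ± 0.26), and FN1 from 299 to 112 CPM (-1.41 ± 0.040), with edgeR adjusted p values of 4.74e-17, 2.83e-06 and 9.57e-34. FSTL3 fell from 68.6 to 26.6 CPM (-1.36 ± 0.071). SNAI2, a transcription factor of the neural crest, rose from 0.532 to 2.24 CPM (2.06 ± 0.41, edgeR adjusted p = 4.40e-05), BHLHE40, a transcriptional repressor, from 14.4 to 36.2 CPM (1.33 ± 0.091), COL4A1 from 302 to 696 CPM (1.21 ± 0.036), and BAMBI, a decoy receptor that dampens the pathway, from 32.7 to 63.2 CPM (0.95 ± 0.067).

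Of the SMADs and partners in A375, SMAD3 alone passed the threshold among the 7 tested, falling from 172 to 134 CPM (-0.36 ± 0.041, edgeR adjusted p = 1.89e-10). SMAD2 was 73.1 and 68.8 CPM and SMAD4 60.6 and 64.4 CPM, with edgeR adjusted p values of 0.205 and 0.246. CCN2 fell from 131 to 102 CPM (-0.36 ± 0.046, edgeR adjusted p = 5.51e-09). TGFB3 rose from 1.68 to 2.98 CPM (0.82 ± 0.30, edgeR adjusted p = 0.0225), a call that ended without wild-type replicate 2 or TFE3KO replicate 3 (0.0606 and 0.0673). SKIL was 54.0 and 50.05 CPM (edgeR adjusted p = 0.153). LRRC32, the other membrane anchor of latent TGF-beta, was at 0 in every library except 1 of A375 TFE3KO, which held 3 counts; a group of 3 libraries at 0 allows a level of up to 0.0563 CPM and the lone wild-type library up to 0.120 CPM.

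The test of the difference between lines called 38 of 59 pathway genes, 16 with a higher and 22 with a lower effect in SKMEL28, beside 37.7% of all genes. IL11 (3.01 ± 0.27, edgeR adjusted p = 5.00e-10) and FN1 (2.05 ± 0.064, edgeR adjusted p = 1.46e-19) had effects of opposite sign, with IL11 at 2.33 in SKMEL28 and -0.67 in A375 and FN1 at 0.62 and -1.41. The FN1 value in SKMEL28 came mostly from clone 13, at 1.15 against MITFKO and 1.06 above clone 3. IL11 rose in both clones, by 2.44 in clone 3 and 2.21 in clone 13. CCN2 differed by 1.06 ± 0.21 (edgeR adjusted p = 0.000926), having risen in clone 3 and fallen in A375. SKIL differed by -0.37 ± 0.11 (edgeR adjusted p = 0.0105). SMAD2 and SMAD4 did not pass the threshold, with edgeR adjusted p values of 0.501 and 0.724. SMAD3 differed by 0.19 ± 0.066 (edgeR adjusted p = 0.0211), a call that ended without MITFKO replicate 2 or A375 wild-type replicate 2 (0.0742 and 0.0815) and with no filter on low counts (0.09999). TGFB3 differed by -0.63 ± 0.24 (edgeR adjusted p = 0.0390), a call that ended (0.0515 to 0.104) without any of MITFKO replicates 2 and 3, clone 3 replicates 2 and 3, clone 13 replicates 1 and 3, A375 wild-type replicates 1 and 2, and A375 TFE3KO replicates 2 and 3.

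Among 11882 genes of at least 5 CPM in their highest group, those with the profile most like a given gene over the 6 groups were found by the root mean square difference of centred log2 group means. For TGFB1 they were CLU (0.22), a secreted chaperone, AKR1C3 (0.33), a steroid-converting enzyme, and PRKCA (0.35), a protein kinase C. CLU was 0.239 CPM in SKMEL28 wild type, 2.75, 3.53 and 3.34 CPM in MITFKO and the clones, and 12.0 and 5.57 CPM in A375 wild type and TFE3KO. For PMEPA1 the closest was LTBP3 (0.27), which is in the pathway list, then ITGA5 (0.30), a fibronectin receptor subunit, and WNK4 (0.33), a kinase. LTBP3 followed 4.90, 158, 135 and 328 CPM in SKMEL28 and 280 and 477 CPM in A375, so clone 3 lay below MITFKO for LTBP3 and above it for PMEPA1. For NRROS they were ANKRD30B (0.34), NEK11 (0.43), a kinase, and DOCK10 (0.43), a guanine nucleotide exchange factor. DOCK10 was 135, 75.8, 51.2 and 51.5 CPM in SKMEL28 and 16.9 and 6.60 CPM in A375.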

How the data were processed

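RNA-seq was measured in 16 libraries. The authors deposited raw counts per gene symbol; the submitters' processing notes name STAR, featureCounts, DESeq2 and hg19, without versions or settings. The annotation release is not given in the sources used here. The 9 genes and the list of 69 were chosen with earlier results of these data known.

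From the counts, edgeR 4.0.16 (R 4.3.3) fitted robust quasi-likelihood models with TMM scaling to all 10 SKMEL28 libraries (14605 genes after filterByExpr), all 6 A375 libraries (14012 genes), and, for the difference between lines, the 15 libraries without SKMEL28 wild type (15093 genes). A gene was called at a Benjamini-Hochberg adjusted p under 0.05 over all genes tested. Tests against the lone wild-type library borrow the spread of the remaining SKMEL28 groups. The standard error is the log2 fold change divided by the square root of its F statistic. CPM used the effective library sizes; lengths are GENCODE v29 exon unions. Floors of 3 counts and 95% intervals cover counting error only, since reads carried no molecular identifiers. The fit was tested on simulated counts. Motifs were searched in the 250 bases before each RefSeq start.

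Other pathway genes were named by rule: SMAD2, SMAD3, SMAD4, LRRC32, TGFB3, SKIL and CCN2, and up to 4 rises and 4 falls per comparison among called genes of at least 1 CPM without overlap of groups; some genes the rule names are not reported here. Alternatives were DESeq2 1.42.0, RLE factors, no filter, a filter of 1 CPM in 3 libraries, only the groups compared, a replicate block and leaving out each library.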

Additional observations from a re-analysis of the deposited data

Results flagged for a closer look

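For 4 of the 9 genes, every SKMEL28 DKO library lay on one side of MITFKO and every A375 TFE3KO library on the other side of A375 wild type. The difference between lines on the log2 scale was 1.54 for INHBA, 0.80 for TGFBR1, 1.69 for TGFBR2 and 1.95 for TGFBI. As a finding the difference was not tested for these 4: they were chosen with the results known, so their calls in the fit over all genes enter the count above as a description and no p-value is given.

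The edgeR test of the difference between lines called 38 of 59 other pathway genes, beside 37.7% of all genes tested. The difference is given here for 8 of them. The rule that named them took only called genes, so their passing the test is not a result. The list they come from was written by role, also with earlier results of these data known, so these p-values are not free of that choice. It was 3.01 for IL11 (adjusted p = 5.00e-10), 2.94 for COL1A1 (adjusted p = 0.00348), 2.82 for PTHLH (adjusted p = 0.00131) and 2.05 for FN1 (adjusted p = 1.46e-19) by edgeR's quasi-likelihood test. It was -2.25 for SNAI2 (adjusted p = 1.29e-07), -1.64 for FBN1 (adjusted p = 0.00549), -1.45 for BHLHE40 (adjusted p = 6.11e-14) and -1.45 for COL4A1 (adjusted p = 0.000497) by the same edgeR test. The value for COL1A1 ran from 2.33 without MITFKO replicate 1 to 4.13 without MITFKO replicate 2. COL1A1, PTHLH and FBN1 were low in SKMEL28, with 0.511, 0.530 and 0.304 CPM over the groups of the test.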

How the results depend on the processing

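Each comparison's count of called genes, and of called pathway genes, stayed within 1.5 times its value under every alternative run, and no called log2 fold change of a named gene changed sign. With 1 library left out, called genes ran from 6448 to 6551 for MITFKO against wild type, 4079 to 4494 for clone 3, 4924 to 6078 for clone 13, 4711 to 6638 for their mean, 2983 to 3946 between clones, 5455 to 5963 in A375 and 5094 to 6280 for the difference between lines. Called pathway genes ran, in the same order, from 45 to 47, 21 to 23, 27 to 31, 24 to 32, 18 to 27, 30 to 34 and 32 to 41. Of 751 values of the 9 genes under alternatives, 744 moved by less than the SD of log2 CPM between replicates. Leaving out 1 of 3 libraries can hardly move a group mean by that much, so this count is a weak check. It includes TGFB1 in clone 13, whose log2 fold change against MITFKO went from 0.027 to -0.090 without replicate 2. The MITFKO comparison rests on 1 wild-type library throughout, and TGFB2 in SKMEL28 and ANGPTL4 in wild type are limited by depth.

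Deviations of same-numbered libraries correlated between -0.0419 and 0.252, and a library matched best with its own number in 8 of 24 comparisons. Replicate numbers did not pair MITFKO with the DKO clones or the A375 groups, where these correlations ran from -0.0419 to 0.0772. Between the DKO clones they ran from 0.0561 to 0.252, highest for replicate 2. Clone 3 replicate 2 correlated at -0.192 and -0.133 with clone 13 replicates 1 and 3. A batch shared by replicate 2 of the clones was not tested. With the replicate number as a block, called genes were 5575 for clone 3, 6221 for clone 13, 6290 for their mean, 4410 between clones, 5721 in A375 and 5674 for the difference between lines, and called pathway genes 27, 32, 33, 25, 33 and 39. No paired analysis was possible for MITFKO against wild type because the wild type has 1 library with a number of its own.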
